A study of Mus musculus with 24 samples.

Results

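DRD5-/- and WT M2 macrophages were compared before any dopamine was given. The 3 libraries of untreated M2 DRD5-/- BMDMs were set against the 3 libraries of untreated M2 WT BMDMs, 6 of the 24 libraries of the series. BMDMs are macrophages grown from bone marrow in medium conditioned by L929 cells, and those of both genotypes were brought to the M2 state in 12 h with IL-4 and IL-13, each at 10 ng/ml. The mice were C57BL/6, aged 10 weeks, and the DRD5-/- mice were made with CRISPR-Cas9, so the gene was disrupted in the whole animal and not in macrophages alone. The other libraries were M2 BMDMs of both genotypes treated with dopamine (DA), and M1 BMDMs of both genotypes brought to the M1 state by LPS at 100 ng/ml together with 50 ng/ml of IFN-γ, with or without DA, also 3 libraries a group. Libraries were assigned by their labelled genotype, stimulus and treatment. The sources used here do not say whether the 3 libraries of a group came from separate mice or separate cultures, so p-values measure only the spread between these libraries, which may be technical.

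DRD5 is a D1-like dopamine receptor that couples to the stimulatory G protein, so that its ligand raises cAMP, which activates protein kinase A and then the transcription factor CREB. IL-4 and IL-13 act through STAT6, which turns on the alternative activation genes such as Arg1 and Mrc1 that are used to recognise M2 macrophages. Macrophages also keep a low tone of interferon signalling at rest, in which STAT2, IRF9 and their partners maintain the interferon-stimulated genes that guard against viruses.

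Levels are given as FPKM, fragments scaled by transcript length and by the mapped fragments of the library. The M2 files listed 17786 genes, and the 10735 genes that reached 1 FPKM in 3 or more of the 12 M2 libraries were tested. FPKM of the M2 libraries summed to between 482310 and 503799, and each of the 12 libraries held from 10349 to 10444 genes at 1 FPKM or more. The files hold no read counts, and the depth of each library is unknown. Drd5 itself was listed at 0 FPKM in all 3 untreated DRD5-/- libraries and in 2 of the 3 untreated WT libraries, with 0.06 in the other, so the genotype labels could not be checked on the targeted gene. Drd1, the other D1-like receptor gene, lay between 0.13 and 0.25 FPKM in the 6 libraries, Drd4 reached at most 0.04, and Drd2 was listed at 0. The macrophage markers were high in all 6 libraries, with Csf1r, the receptor of the macrophage growth factor, between 884.9 and 997.47 FPKM and Adgre1, which encodes F4/80, between 416.57 and 456.69. The T cell gene Cd3d, the B cell gene Cd79a and the neutrophil protease gene Elane reached at most 0.11, 0.11 and 0.06 FPKM. Other members of these lists were higher. The summed T, B and NK cell list, led by Cd4, was 7.52 to 7.95 FPKM in DRD5-/- and 5.13 to 5.79 FPKM in WT libraries. Cd4, its only tested member, was higher in DRD5-/- by 0.62 on the log2 scale. The summed neutrophil list, led by Csf3r, was 60.5 to 63.3 against 67.6 to 68.6 FPKM. The methods state male mice, and of the Y-linked genes Ddx3y and Kdm5d were at 0.02 FPKM or less in all 12 M2 libraries, while Eif2s3y lay between 0.17 and 0.49 FPKM and Uty between 0.21 and 0.42 FPKM. This held in both genotypes, and its part in the results was not tested.

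Of the 10735 genes tested, 592 were called between untreated DRD5-/- and WT M2 BMDMs, 5.51% of the genes tested. A gene was called at an adjusted p under 0.001 (limma, Benjamini-Hochberg over all tested genes) and a change of at least 1.2-fold. More genes were lower than higher in the DRD5-/- libraries: 445 were lower (4.15%) and 147 were higher (1.37%). The changes were small, with a median of 1.38-fold among the lower and 1.35-fold among the higher genes, and 36 genes, 22 lower and 14 higher, changed by at least 2-fold. The surplus of lower genes depended in part on scaling. Rises made up 24.8% of the calls as deposited, 40.1% of 561 after median-of-ratios scaling and 35.7% of 526 after quantile normalization. The median change over all tested genes was -0.03 on the log2 scale. The 3 DRD5-/- values lay below all 3 WT values for 27.6% of the tested genes and above them for 11.9%, so values that do not overlap were common and are read against these shares.

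**Figure D1:**
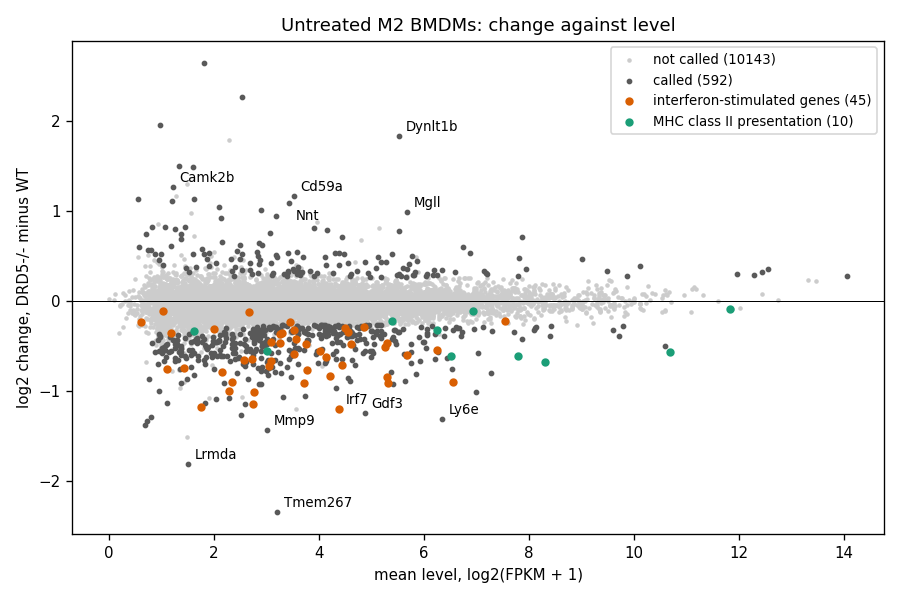
The plot sets the log2 change (DRD5-/- minus WT, vertical axis) against the mean level as log2(FPKM + 1) (horizontal axis) for the 10735 genes tested in untreated M2 BMDMs. Each dot is a gene, dark dots are the 592 called genes, and the orange interferon-stimulated genes and green MHC class II genes all lie below 0. Unlabelled dots at the top are mostly predicted genes, 9 of the 14 genes with at least a 2-fold rise.

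The interferon-stimulated genes were lower in untreated DRD5-/- M2 BMDMs almost as a whole. Of 54 genes on the list, 51 were listed and 45 tested, and 38 of these fell, none rose and 7 were not called. The background was 4.15% of genes called lower. The median change of the 45 members was -0.58 on the log2 scale, against -0.03 over all tested genes, and each of the 45 had a negative change. The summed FPKM of the list was between 746 and 768 in the DRD5-/- libraries and between 1120 and 1150 in the WT libraries. Leaving out any 1 of the 6 libraries left 35 or 36 members lower.

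Irf7, the transcription factor that amplifies type I interferon production, had the largest fall on the list. It was at 12.95, 11.76 and 13.83 FPKM in the DRD5-/- libraries and at 31.65, 30.45 and 30.33 FPKM in the WT libraries. The groups did not overlap, and the change was -1.20 on the log2 scale (SE 0.0444, adjusted p = 4.504e-10). Usp18, the protease that removes ISG15 and restrains interferon signalling, was at 3.27, 3.93 and 3.36 FPKM against 8.78, 8.53 and 9.70 FPKM (-1.15, SE 0.0669, adjusted p = 3.014e-08). Ifi44 was at 1.33, 1.17 and 1.28 FPKM against 3.84, 4.27 and 4.17 FPKM (-1.17, SE 0.0564, adjusted p = 4.7e-09). Irf7, Usp18 and Ifi44 were named among the largest falls without overlap between the groups, so their separation is not a finding in itself. Genes of the oligoadenylate synthetase family, which senses double-stranded RNA, fell as well. Oasl2 was at 27.75, 27.47 and 29.24 FPKM against 53.61, 52.88 and 54.99 FPKM (-0.91, SE 0.0289, adjusted p = 1.326e-10), and Oas3 at 8.94, 8.11 and 8.78 FPKM against 16.69, 17.59 and 16.74 FPKM (-0.91, SE 0.0379). Rtp4, an interferon-induced receptor transporter gene, was at 29.49, 27.66 and 27.77 FPKM against 50.54, 52.03 and 51.41 FPKM (-0.84, SE 0.0353).

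Outside the list, Ly6e, an interferon-induced surface protein gene, fell from 122.08, 128.02 and 130.0 FPKM in WT to 50.13, 50.03 and 52.01 FPKM in DRD5-/- libraries (-1.30, SE 0.0301, adjusted p = 7.527e-12). The IFI200 genes, which encode nuclear DNA-binding proteins, moved with them. Of 9 tested members of a family list written after values were seen, 8 fell and none rose, against 4.15% of all tested genes called lower. Ifi209 was at 2.6, 2.96 and 2.52 FPKM against 7.7, 7.82 and 8.06 FPKM (-1.26, SE 0.0601), and Ifi204, on both lists, had means of 62.5 and 91.6 FPKM (-0.54, SE 0.0422). The IFI200 genes are close copies of each other, and how the authors' counting split reads among them is not given, so their single values are uncertain.

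The genes of the interferon pathway upstream of these targets were listed after the values of the targets were seen, and are described by role. The 6 listed interferon genes, Ifnb1 and Ifng among them, reached at most 0.13 FPKM in any of the 6 libraries. None of the 5 tested receptor chains was called. Ifnar1, a chain of the type I interferon receptor, had means of 29.1 FPKM in DRD5-/- and 28.0 FPKM in WT libraries (0.05, SE 0.0352, adjusted p = 0.3097), and Ifnar2 81.2 and 81.3 FPKM. None of the 3 kinases was called. Among 9 transcription factors 4 fell and none rose, with Irf7, Stat2 and Irf9 among the falls. Stat2 had means of 12.4 and 18.8 FPKM (-0.56, SE 0.0424), and Irf9 25.4 and 31.2 FPKM (-0.29, SE 0.0439). These 3 are themselves interferon-stimulated genes. Irf3, which is not induced by interferon, had means of 28.6 and 26.1 FPKM (0.13, SE 0.0432, adjusted p = 0.04274) and was not called. Of 9 nucleic acid sensors, adaptors and regulators, Ddx58, Ifih1, Trex1, Samhd1 and Adar fell and none rose. The background for these roles was 4.15% of all tested genes called lower.

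STAT2 and IRF9 act at the interferon-stimulated response element (ISRE). Its letters, GAAA, any 2 bases and GAAA again, were searched on both strands in the 250 bases before the annotated starts of 8685 tested genes (80.9%) that had a window in the RefSeq table of build GRCm38.p6. The windows of 22 of the 36 interferon-stimulated genes with one held the ISRE letters (61.1%), against 3.4% of all tested genes. Among genes called lower that were not on the list, 5.14% of 311 held them, and among genes called higher 3.77% of 106. The windows of the 5 list members with the lowest adjusted p among those with a match are shown because they are the promoters of genes that fell together. They were taken from RefSeq, run 5′ to 3′ on the strand of the gene and end at the base before the start, and the ISRE letters are in capitals.
Oas3, chr5:120777660-120777909, minus strand: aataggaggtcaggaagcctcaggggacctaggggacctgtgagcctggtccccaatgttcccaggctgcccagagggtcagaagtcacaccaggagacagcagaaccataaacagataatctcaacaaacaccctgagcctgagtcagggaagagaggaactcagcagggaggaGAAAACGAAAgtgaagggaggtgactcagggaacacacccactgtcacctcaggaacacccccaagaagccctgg
Slfn5, chr11:82951852-82952101, plus strand: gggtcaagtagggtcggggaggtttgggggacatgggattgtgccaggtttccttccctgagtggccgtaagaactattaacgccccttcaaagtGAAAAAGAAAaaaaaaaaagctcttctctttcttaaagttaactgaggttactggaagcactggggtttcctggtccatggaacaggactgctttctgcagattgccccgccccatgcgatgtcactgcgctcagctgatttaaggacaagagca
Ifit3, chr19:34583279-34583528, plus strand: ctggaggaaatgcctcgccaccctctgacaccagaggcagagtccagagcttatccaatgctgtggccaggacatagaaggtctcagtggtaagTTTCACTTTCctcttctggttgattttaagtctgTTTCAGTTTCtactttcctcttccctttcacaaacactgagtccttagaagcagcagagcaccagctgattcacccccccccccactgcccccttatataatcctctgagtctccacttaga
Irgm1, chr11:48871421-48871670, minus strand: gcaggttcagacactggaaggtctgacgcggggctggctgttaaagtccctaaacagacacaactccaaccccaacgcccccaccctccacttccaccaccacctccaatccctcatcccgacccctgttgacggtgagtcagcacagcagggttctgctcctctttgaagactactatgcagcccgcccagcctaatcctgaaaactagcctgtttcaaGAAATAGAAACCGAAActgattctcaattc
Rsad2, chr12:26456453-26456702, minus strand: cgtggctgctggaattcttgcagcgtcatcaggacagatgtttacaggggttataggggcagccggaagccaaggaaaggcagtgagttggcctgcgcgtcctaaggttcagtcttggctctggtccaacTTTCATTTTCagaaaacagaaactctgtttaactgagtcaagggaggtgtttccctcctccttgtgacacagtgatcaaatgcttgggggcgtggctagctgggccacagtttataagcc
The Ifit3 and Irgm1 windows held 2 matches each, which overlap in Irgm1, and the other windows held 1. Oas3 fell by 0.91 on the log2 scale, Ifit3 by 1.01, Rsad2 by 0.79, Slfn5 by 0.71 and Irgm1 by 0.46. The palindromic CRE letters bound by CREB, TGACGTCA, were in the windows of 1.47% of 340 genes called lower, 1.89% of 106 called higher and 3.12% of all tested genes with a window. A STAT6-type match, TTC, any 4 bases and GAA, was in 8.82%, 6.6% and 5.72% of the same groups. A match is a description of letters in this window and says nothing of binding.

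The genes of MHC class II presentation, which show peptides to CD4 T cells, were lower in DRD5-/- M2 BMDMs. Of 10 tested members 6 fell and none rose, against 4.15% of all tested genes called lower. The median change was -0.44, and the count was 6 whichever of the 6 libraries was left out. H2-Aa was at 244.91, 255.37 and 247.46 FPKM in DRD5-/- and at 406.73, 395.07 and 393.25 FPKM in WT libraries (-0.67, SE 0.0221, adjusted p = 1.326e-10). H2-Ab1, its partner chain, was at 179.44, 176.03 and 182.47 FPKM against 272.76, 274.96 and 277.33 FPKM (-0.61, SE 0.0253). Cd74, the invariant chain, was at 1350.91, 1343.31 and 1349.36 FPKM against 2075.37, 2064.22 and 1862.38 FPKM (-0.57, SE 0.0342). The groups did not overlap for these 3 genes. H2-Eb1 fell as well (-0.61, SE 0.032), and so did Ciita, which switches this gene group on, and H2-DMb1. None of the 21 tested genes of MHC class I presentation was called. H2-K1, a class I heavy chain, had the lowest adjusted p among them, 1.465e-06, with means of 548 and 648 FPKM, and its change of -0.24 was under the 1.2-fold limit.

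Of 8 tested monocyte markers, 4 fell and none rose. For this list and those that follow, the background was 4.15% of all tested genes called lower and 1.37% called higher. S100a4, a calcium-binding protein gene, was at 1290.6, 1339.77 and 1263.04 FPKM against 1773.71, 1729.28 and 2009.94 FPKM (-0.50, SE 0.043), Hp, which encodes haptoglobin, had means of 5.73 and 10.2 FPKM (-0.73, SE 0.0683), and Ly6c1 2.34 and 5.32 FPKM (-0.90, SE 0.115). The summed FPKM of the monocyte list was between 1320 and 1400 in DRD5-/- and between 1790 and 2080 in WT libraries, most of it S100a4. In bulk samples, fewer cells of a kind and less RNA per cell cannot be told apart. Of 17 tested genes of Toll-like receptors and their partners, Cd14 (-0.29, SE 0.0282), Tlr4 and Tlr9 fell and Tlr6 rose. None of these falls was called after median-of-ratios scaling or quantile normalization, and the rise of Tlr6 was not called with any 1 of the 6 libraries left out. Of 17 complement and Fc receptor genes, C3 fell from a mean of 75.8 to 47.5 FPKM (-0.66, SE 0.0297, adjusted p = 2.559e-09), C1qa fell from 957 to 731 FPKM (-0.39, SE 0.0217), and none rose. Of 19 inflammasome genes 3 fell, Ifi204 among them, and none rose.

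Among the alternative activation markers that define the M2 state, 9 of 26 tested fell, none rose and 17 were not called. Of all tested genes 4.15% were called lower. The median change was -0.08. Arg1, the enzyme that breaks down arginine, was at 28.36, 29.28 and 27.83 FPKM in DRD5-/- and at 28.52, 29.86 and 28.45 FPKM in WT libraries. The groups overlapped (-0.02, SE 0.0365, adjusted p = 0.7058). Chil3, which encodes Ym1, had means of 42.4 and 44.8 FPKM (-0.08, SE 0.0361, adjusted p = 0.14), and Retnla, which encodes Fizz1, 95.2 and 104 FPKM (-0.12, SE 0.0423, adjusted p = 0.04351), and neither was called. Mrc1, the mannose receptor, was at 250.78, 244.62 and 247.88 FPKM against 303.13, 299.33 and 314.66 FPKM and fell (-0.30, SE 0.0234, adjusted p = 4.789e-07). Larger falls were in lectin and folate receptor genes. Clec10a was at 37.39, 36.67 and 34.05 FPKM against 65.62, 66.73 and 69.5 FPKM (-0.88, SE 0.0466), and Mgl2, its neighbour and close relative, at 41.37, 43.37 and 40.23 FPKM against 66.53, 67.72 and 68.47 FPKM (-0.69, SE 0.0324). Folr2, a folate receptor, was at 112.71, 115.85 and 123.05 FPKM against 208.85, 203.44 and 203.11 FPKM (-0.80, SE 0.0324, adjusted p = 1.162e-09). Every DRD5-/- library was lower than every WT library for these genes. The other called markers were Chil4, Ccl24, Cdh1, Ccl22 and Pdcd1lg2. Scaling by median of ratios left 7 lower and called 2 higher, and leaving out 1 library left between 6 and 8 lower. Of 26 tested genes of IL-4 and STAT6 signalling, Klf4 (means 7.69 and 12.5 FPKM, -0.64, SE 0.0384) and Socs3 (-0.40, SE 0.0601) fell and none rose, 7.69% of the list against 4.15% of all tested genes called lower. The call on Socs3 was lost without DRD5-/- library 1 or 3 or WT library 1 (highest adjusted p = 0.00165).

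None of 10 tested dopamine and catecholamine genes and none of 37 tested components from G protein to CREB was called, at a background of 5.51% called either way. Without DRD5-/- library 2, 1 of the 37 was called. The median change of the 37 was -0.10, against -0.03 over all tested genes. All 3 DRD5-/- values lay below all 3 WT values for 19 of the 37 and above them for 3. Over all tested genes these shares were 27.6% and 11.9%. Creb1 was at 7.80, 7.28 and 7.45 FPKM in DRD5-/- and at 7.37, 8.06 and 7.88 FPKM in WT libraries, which overlap (-0.04, SE 0.0476, adjusted p = 0.5483). Crem, a cAMP-responsive relative of Creb1, had means of 9.34 and 11.7 FPKM and an adjusted p of 0.001019, just outside the threshold. Of 27 tested CREB target genes, Btg2 (-0.37, SE 0.0527) and Thbs1 (-0.30, SE 0.0319) fell and none rose, 7.41% of the list against 4.15% of all tested genes called lower. The call on Btg2 was lost without DRD5-/- library 3 or WT library 3 (highest adjusted p = 0.00122). Of 32 tested NF-κB subunits, kinases and inhibitors, only Tnip3, an inhibitor of NF-κB, was called, with means of 17.5 and 25.0 FPKM (-0.49, SE 0.0358). Of 10 tested classical activation markers, Cd86 and Ptgs2 fell and none rose, and 1 was lower whichever of the 6 libraries was left out.

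Metabolic genes split by pathway. For each list the background was 4.15% of all tested genes called lower and 1.37% called higher. In sterol synthesis 7 of 24 tested genes fell and none rose, with a median of -0.22, and 4 or 5 were lower whichever of the 6 libraries was left out. Sqle, squalene epoxidase, was at 8.7, 8.77 and 8.72 FPKM against 12.96, 12.81 and 12.99 FPKM (-0.52, SE 0.0311, adjusted p = 4.349e-08). Cyp51 (-0.36) and Fdft1 (-0.40), enzymes of the same route, fell as well. Among 30 tested genes of lipid uptake, efflux and storage 6 rose and 2 fell. Mgll, which encodes monoacylglycerol lipase, rose most, from 34.35, 35.61 and 36.28 FPKM in WT to 72.0, 70.66 and 70.66 FPKM in DRD5-/- libraries (0.99, SE 0.0321, adjusted p = 1.326e-10). Lpl, lipoprotein lipase, rose from a mean of 973 to 1270 FPKM (0.38, SE 0.0219), and Apoe, the carrier of secreted cholesterol, from 5320 to 6800 FPKM (0.35, SE 0.028). Scd1, stearoyl-CoA desaturase, fell (-0.72, SE 0.0621). Of 50 tested lysosome genes 3 rose, among them Psap (0.32) and Ctsd (0.29), and Ctsc fell. These calls made up 8.0% of the list, against 5.51% of all tested genes called either way. Of 24 tested iron and heme genes Hmox1 (0.27), Fth1 (0.28) and Slc40a1, the iron exporter (0.42), rose and none fell. The rises of Ctsd and Fth1 depend on scaling, since quantile normalization, which gives the same rank the same value in every library, left a change of 0 for each. Leaving out 1 library lost the call on Slc40a1 in 4 of 6 cases (DRD5-/- library 1 or 2, WT library 1 or 3, highest adjusted p = 0.00216). The calls on Fth1 (DRD5-/- library 2 or WT library 2) and Hmox1 (WT library 1) were lost because the change fell under 1.2-fold. Of 29 tested antioxidant genes 3 fell and 2, Hmox1 and Fth1, rose, with a median of 0.02. Nqo1, a quinone reductase, fell from 2.34, 2.39 and 2.21 FPKM to 0.9, 1.11 and 0.88 FPKM (-0.76, SE 0.0805), and the other falls were Me1 and Gstp1. Of 38 tested genes of the unfolded protein and integrated stress response, 4 fell, Nupr1 (-0.64, SE 0.0691) and Ddit3 (-0.39, SE 0.0594) among them, and none rose. The count was 1 without DRD5-/- library 3 or WT library 2, and the call on Ddit3 was lost with any of these or without DRD5-/- library 1 or 2 (highest adjusted p = 0.00176). None of 74 respiratory chain, 31 proteasome, 37 DNA replication and 32 mitosis genes tested was called.

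**Figure D2:**
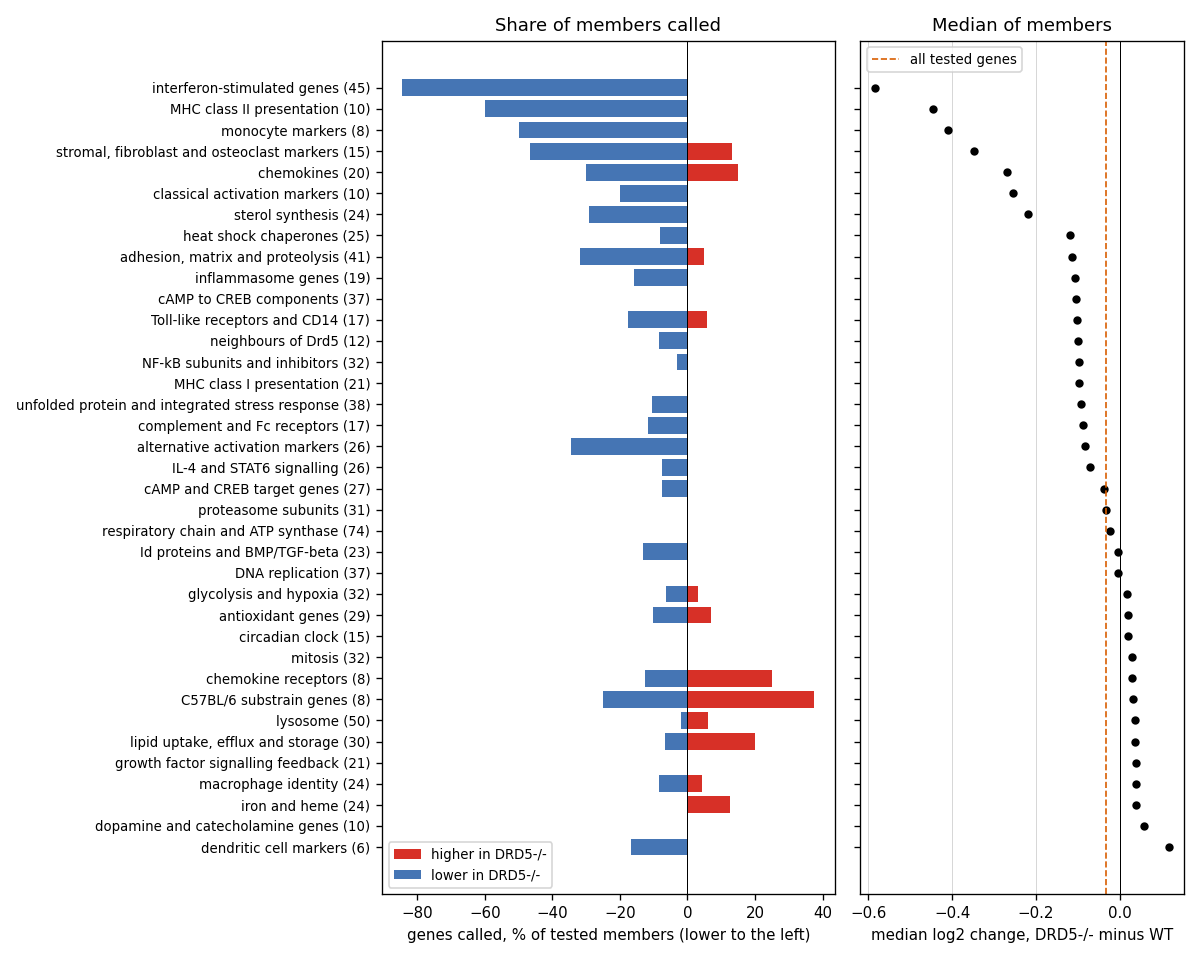
The left panel gives, for each gene list with at least 6 tested members (number in brackets), leaving out the lists written after values were seen, the percentage of members called higher (red, to the right) or lower (blue, to the left) in untreated DRD5-/- against WT M2 BMDMs. The right panel gives the median log2 change of the members, with the median of all tested genes, -0.03, as a dashed line. The interferon-stimulated genes, with 38 of 45 lower and a median of -0.58, stand furthest left of the lists drawn.

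Chemokines moved in both directions. Of 20 tested, 6 fell and 3 rose, against backgrounds of 4.15% lower and 1.37% higher, and without DRD5-/- library 2 there were 3 lower. The macrophage inflammatory proteins Ccl3 and Ccl4, which attract leukocytes, rose from 73.22, 71.3 and 69.62 to 91.91, 87.73 and 93.12 FPKM (0.34, SE 0.0325) and from 43.79, 42.49 and 48.54 to 65.83, 63.23 and 61.77 FPKM (0.49, SE 0.0473). The monocyte attractant Ccl7 fell from 74.68, 78.27 and 80.88 to 51.96, 55.44 and 55.15 FPKM (-0.52, SE 0.0445), and Ccl9 fell by 0.33 on the log2 scale (SE 0.025). The groups did not overlap for these 4 genes. The annotated spans of Ccl3 and Ccl4 overlap, and whether the counting used strand is not given. Among 8 tested chemokine receptors, Ccr3 (0.47, SE 0.0509) and Ccr1 (0.35, SE 0.0618) rose. The call on Ccr1 was lost whichever of the 6 libraries was left out (highest adjusted p = 0.0052).

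Of 41 tested genes of adhesion, matrix and proteolysis 13 fell and 2 rose, against backgrounds of 4.15% lower and 1.37% higher. Median-of-ratios scaling gave 10 lower and 3 higher. Mmp9, the gelatinase that cuts basement membrane, fell from 13.26, 11.62 and 11.87 FPKM to 4.14, 4.1 and 3.48 FPKM (-1.43, SE 0.0669, adjusted p = 3.829e-09). Tgfbi, a matrix protein gene that TGF-β induces, fell from 56.55, 56.62 and 59.62 to 29.97, 30.41 and 29.2 FPKM (-0.92, SE 0.0299, adjusted p = 1.326e-10). Plau, the urokinase plasminogen activator, went the other way, from between 15.36 and 16.65 FPKM to 26.45, 27.57 and 26.14 FPKM (0.71, SE 0.0438, adjusted p = 6.094e-08). In all 3 genes the groups did not overlap, which the rule that named Mmp9 among the largest falls required of it.

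On the list of stromal, fibroblast and osteoclast markers 7 of 15 tested members fell, and these were the fibroblast genes Dcn, Lum, Pdgfra, Pdgfrb, Col1a1, Col1a2 and Col3a1, while the osteoclast genes Acp5 and Ocstamp rose. The backgrounds were 4.15% of all tested genes called lower and 1.37% called higher. Dcn, which encodes the proteoglycan decorin, was at 41.72, 42.75 and 43.15 FPKM against 75.69, 73.97 and 75.78 FPKM (-0.81, SE 0.0291, adjusted p = 3.715e-10). Lum, a related proteoglycan, had means of 0.887 and 2.54 FPKM (-0.91, SE 0.0998), Col1a2 15.3 and 21.5 FPKM (-0.46, SE 0.0333), and Col3a1 4.87 and 6.97 FPKM (-0.44, SE 0.0436). The summed FPKM of the list was between 168 and 172 in DRD5-/- and between 210 and 218 in WT libraries. On a list of secreted fibroblast factors, written after values were seen, 9 of 13 tested fell and none rose. None of the fibroblast markers Pdgfra, Pdgfrb, Col1a1 and Dcn was at 0 in any of the 6 libraries, and the part of stromal cells in the results was not tested.

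Some endothelial genes were higher, at low levels. Cdh5, which encodes VE-cadherin, was at 1.72, 1.87 and 1.81 FPKM in DRD5-/- and at 0.57, 0.69 and 0.5 FPKM in WT libraries (0.82, SE 0.0674, adjusted p = 8.255e-07). Plvap, of the diaphragms of fenestrated vessels, whose annotated span overlaps that of Gtpbp3, was at 2.15, 2.12 and 2.17 FPKM against 0.84, 1.02 and 0.59 FPKM (0.80, SE 0.0996), and Apln, the ligand apelin, at 2.64, 2.2 and 3.09 FPKM against 1.27, 1.09 and 0.83 FPKM (0.82, SE 0.103). Prnd, a prion protein relative, was at 1.35, 1.12 and 1.51 FPKM against 0.66, 0.08 and 0.28 FPKM (0.82, SE 0.126). The call on Prnd was lost without DRD5-/- library 1 or 3 or WT library 2 or 3 (highest adjusted p = 0.00225). These genes led to an endothelial list of 24 genes, written after values were seen and holding Cdh5, Plvap and Apln themselves, of which 13 were tested, 8 rose and none fell. Of all tested genes 1.37% were called higher. The endothelial receptor Tek reached at most 0.05 FPKM, while Kdr lay between 2.61 and 3.1 FPKM. The summed FPKM of the list was between 76.4 and 78.8 in DRD5-/- and between 65.0 and 66.8 in WT libraries, led by Flt1 and Eng, and the part of endothelial cells was not tested.

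Several of the largest single changes were in genes outside these groups. Tmem267, a transmembrane protein gene at chr13:119488086-119610459 (RefSeq, GRCm38.p6), fell most of all tested genes, from 18.74, 20.85 and 19.84 FPKM in WT to 3.21, 3.46 and 2.71 FPKM in DRD5-/- libraries (-2.34, SE 0.0706, adjusted p = 1.326e-10). Lrmda, at chr14:22019504-23056093, which is named for a role in melanocyte differentiation, fell from 4.28, 4.6 and 4.11 to 0.42, 0.64 and 0.51 FPKM (-1.81, SE 0.0895, adjusted p = 6.091e-09). Gdf3, a ligand of the TGF-β family, fell from 44.93, 43.25 and 44.25 to 16.5, 18.35 and 19.37 FPKM (-1.25, SE 0.0602), and L1cam, a cell adhesion molecule, from 8.22, 7.85 and 7.91 to 3.07, 2.97 and 3.23 FPKM (-1.14, SE 0.0475). These 4 genes were named among the largest falls without overlap between the groups, so their separation is not a finding in itself. The paired copies Plac9a and Plac9b were at 0, 0.15 and 0.24 FPKM and listed at 0 in all 3 DRD5-/- libraries, and at 1.78, 1.79 and 1.64 and at 1.86, 2.03 and 1.0 FPKM in WT libraries. Their summed FPKM was at most 0.24 in DRD5-/- and at least 2.64 in WT libraries. The call on Plac9b was lost when any of 5 single libraries, all but WT library 3, was left out (highest adjusted p = 0.00218).

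Dynlt1b, a dynein light chain gene at chr17:6429530-6440500, rose most of the named genes, from 23.15, 23.39 and 23.73 to 79.35, 88.03 and 90.12 FPKM (1.83, SE 0.091, adjusted p = 6.393e-09). It is 1 of 4 listed Dynlt1 copies that share reads. The summed FPKM of the copies was 160, 168 and 165 in DRD5-/- and 79.9, 87.3 and 78.6 in WT libraries, so the difference was also in the sum. Nnt, the mitochondrial transhydrogenase at chr13:119335527-119409257, was at 14.98, 14.68 and 14.38 FPKM against 6.41, 6.03 and 6.71 FPKM (1.09, SE 0.0487, adjusted p = 2.559e-09). Its end lies 78.8 kb from the start of Tmem267, and of the 8 tested genes that start within 1 Mb of Nnt, Nnt, Tmem267 and Gm21188 were called, with Gm21188 lower. Over all tested genes 5.51% were called. This window was set around Nnt after values were seen, and Nnt and Tmem267 were already named for their large changes, so the count is not evidence of a cluster. Camk2b, a subunit of a calcium-dependent kinase, was at 2.72, 2.58 and 2.48 FPKM against 0.44, 0.44 and 0.63 FPKM (1.26, SE 0.0833). Cd59a, an inhibitor of complement lysis, was at 16.05, 17.01 and 15.6 FPKM against 6.43, 6.26 and 7.48 FPKM (1.16, SE 0.0558), and Slc15a2, a peptide transporter, at 2.32, 2.46 and 2.4 FPKM against 0.41, 0.77 and 0.55 FPKM (1.11, SE 0.0839). Rab4a, a GTPase of endosome recycling, rose from a mean of 5.56 to 11.5 FPKM (0.94, SE 0.0502). Bcl2a1c rose from 2.18 to 5.03 FPKM (0.92, SE 0.12), and the summed FPKM of the 4 Bcl2a1 copies, which encode a survival factor, was 310, 334 and 309 in DRD5-/- and 191, 193 and 204 in WT libraries.

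**Figure D3:**
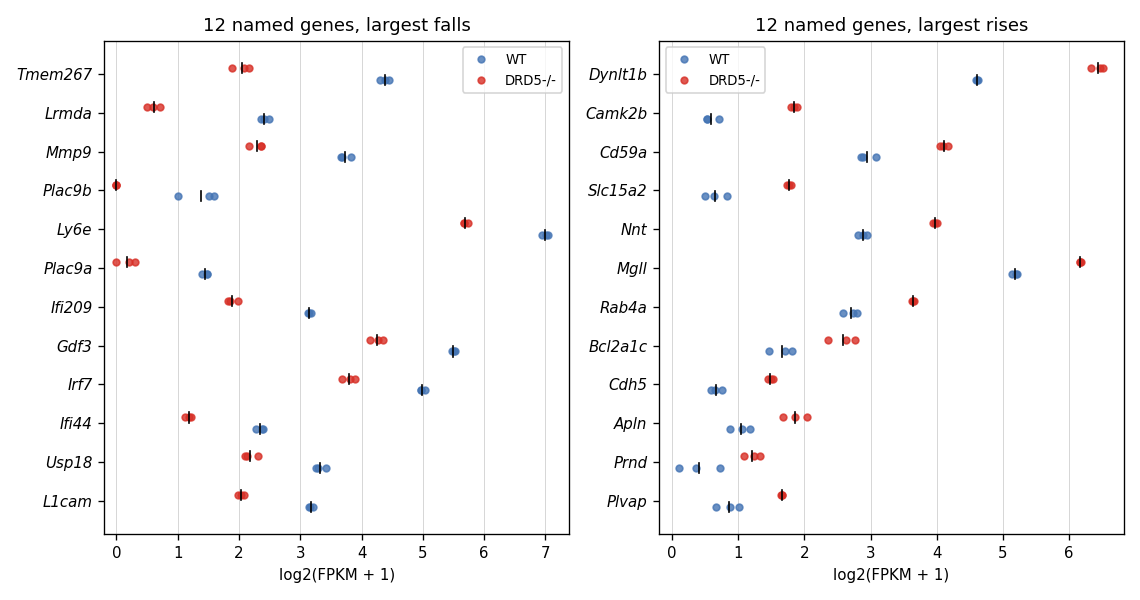
The plots show log2(FPKM + 1) in each untreated M2 library for the 12 named genes with the largest falls (left) and the largest rises (right) in DRD5-/- BMDMs. Red dots are the 3 DRD5-/- libraries, blue dots the 3 WT libraries, and black bars the group means. The naming rule required that the groups not overlap, so the gaps are not a finding in themselves.

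Part of the coding exons of Nnt is deleted in C57BL/6J mice and intact in C57BL/6N mice, and the list of genes known to differ between C57BL/6 substrains was set beside it. Of 8 tested members, Nnt, Wdfy1 and Cyfip2 rose and Entpd4b and Ide fell, 62.5% of the list against 5.51% of all tested genes called either way. None of the 8 members tested in M1 BMDMs without DA was called between the genotypes. Wdfy1 was at 9.83, 10.22 and 9.88 FPKM against 5.98, 5.37 and 5.17 FPKM (0.76, SE 0.0627, adjusted p = 9.192e-07). Entpd4b, named here after its values were seen, was at 7.51, 6.37 and 7.87 FPKM against 13.39, 13.45 and 14.56 FPKM (-0.85, SE 0.113), and the sum of Entpd4 and Entpd4b was at most 9.28 FPKM in DRD5-/- and at least 17.2 FPKM in WT libraries. Ide fell by 0.35 (SE 0.0302), and Cyfip2 rose by 0.29 (SE 0.0363). The substrain of the WT and the DRD5-/- mice is not given in the sources used here, so substrain background and DRD5 genotype cannot be told apart in this comparison. Of 12 tested genes that lie near Drd5 on chromosome 5, Nsg1 fell (-0.49, SE 0.0716) and none rose, 8.33% of the list against 5.51% of all tested genes called either way. Its call was lost without DRD5-/- library 1 or WT library 2 or 3 (highest adjusted p = 0.00136).

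In M1 BMDMs without DA, 94 of 10040 tested genes were called between DRD5-/- and WT, 0.936%, with 73 higher (0.727%) and 21 lower (0.209%). This count was 36 (22 higher and 14 lower) without DRD5-/- library 2, 45 without WT library 3, 57 without DRD5-/- library 3 and 61 without WT library 1, and 36 with no intensity trend. Of the 592 genes called in M2 BMDMs 462 were tested in both stimuli, and 2 of these, Fxyd5 and Cnbd2, were also called in M1 BMDMs, Cnbd2 in the same direction. The difference between the genotype contrasts of the 2 stimuli was tested in 1 fit of all 24 libraries over 9620 genes, and 434 genes (4.51%) were called, 352 with a lower (3.66%) and 82 with a higher (0.852%) change in M2. Among the 462 genes, 286 had a called difference. These genes were picked by the M2 change that also enters the difference, so a high share was built in and is not a finding. The M1 files listed another set of genes, 18063 in number, so levels are compared only within a stimulus. The sources used here do not say whether the M1 and M2 libraries came from the same mice or the same run. Stimulus therefore cannot be told apart from mice or run in this difference.

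None of the 51 interferon-stimulated genes tested in M1 BMDMs was called, their median change was -0.09, and for 34 of 45 the change was lower in M2 than in M1 BMDMs by the test of the difference. Irf7 had a mean of 1210 FPKM in DRD5-/- and 1160 FPKM in WT M1 BMDMs (0.07), and the difference between the stimuli was -1.27 (adjusted p = 4.564e-14). For Ly6e the M1 means were 959 and 919 FPKM and the difference -1.36. None of the 12 MHC class II genes tested in M1 was called, and 7 of 10 had a lower change in M2. For H2-Aa the M1 means were 213 and 223 FPKM and the difference -0.61 (adjusted p = 4.997e-10). Mrc1 and Bcl2a1c were not called by this test (adjusted p = 0.002804 and 0.003923), which does not show that their changes were equal. Lrmda had M1 means of 10.6 FPKM in DRD5-/- and 10.3 FPKM in WT libraries, and the difference was -1.85 (adjusted p = 6.258e-11). Nnt had M1 means of 3.05 and 3.31 FPKM, and the difference was 1.18 (adjusted p = 2.2e-09). Dynlt1b had M1 means of 35.1 and 39.4 FPKM, and the difference was 1.97. Wdfy1 had M1 means of 13.5 and 14.3 FPKM. Tmem267 was at 0.25, 0.42 and 0.36 FPKM in DRD5-/- and at 0.69, 0.61 and 0.44 FPKM in WT M1 BMDMs without DA, and it was not tested there, nor were Mmp9, Plac9a and Plac9b.

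**Figure D4:**
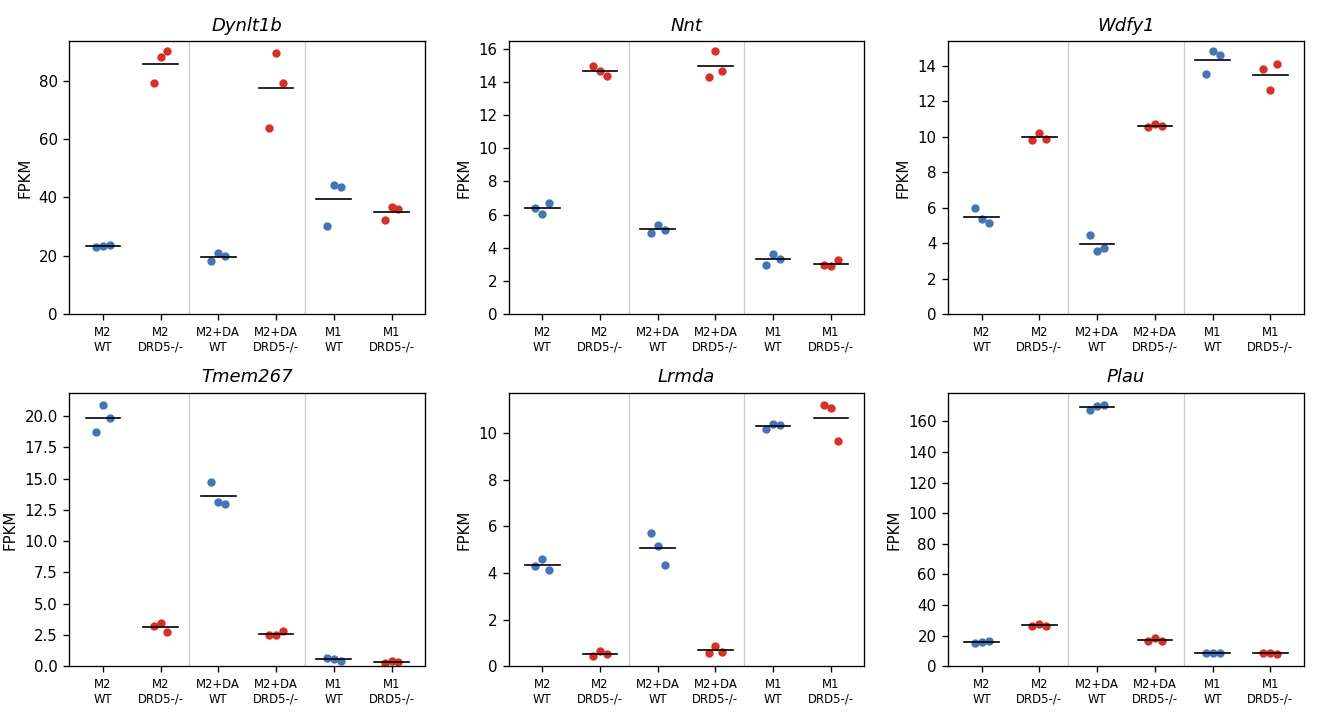
Each panel gives FPKM of a gene in every library of 6 groups, with blue dots for WT, red dots for DRD5-/- and black bars for group means. Dynlt1b, Nnt and Wdfy1 were higher and Tmem267 and Lrmda lower in DRD5-/- M2 BMDMs with and without DA, while in M1 BMDMs none of Dynlt1b, Nnt, Wdfy1 and Lrmda was called. Plau was higher in untreated and lower in DA-treated DRD5-/- M2 BMDMs.

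With DA present, the genotype contrast in M2 BMDMs called 5333 genes, 49.7% of those tested, 2194 higher (20.4%) and 3139 lower (29.2%) in DRD5-/-. The DA-treated WT libraries stood apart. The summed FPKM of the erythroid and megakaryocyte list was between 105 and 109 in them and between 4.61 and 8.9 in the other 9 M2 libraries. Among 45 interferon-stimulated genes 14 were lower and 7 higher in DA-treated DRD5-/- BMDMs, with a median of -0.04. Irf7 had means of 17.2 and 29.1 FPKM with DA (-0.73), a smaller gap than without DA by 0.47 (a test of the difference chosen after the data were seen, called), and Ifi44 had 2.31 and 2.46 FPKM (-0.06). Among MHC class II genes the direction turned, with 6 of 10 higher in DA-treated DRD5-/- BMDMs and none lower. Cd74 had means of 1370 FPKM in DRD5-/- and 1040 FPKM in WT libraries (0.39). Tmem267 (-2.02), Lrmda (-1.84), Ly6e (-1.38), Dynlt1b (1.91), Nnt (1.38) and Cd59a (1.19) kept their direction with DA. The change of each was not called different from that without DA, which does not show that the changes were equal. Mmp9, Slc15a2, Wdfy1 and Rab4a kept their direction as well, but their changes were called different (0.64, 0.58, 0.48 and -0.36). Plau turned from higher to lower, with means of 17.1 and 170 FPKM (-3.24). Arg1, which did not part the untreated genotypes, had means of 40.5 FPKM in DRD5-/- and 592 FPKM in WT libraries with DA (-3.84).

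**Figure D5:**
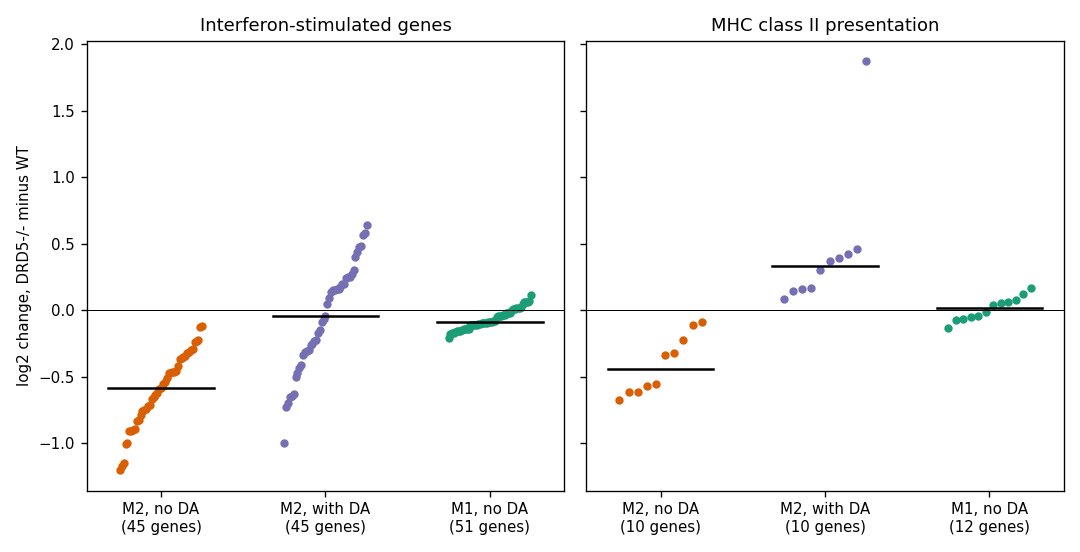
The plots give the log2 change (DRD5-/- minus WT) of each tested interferon-stimulated gene (left) and MHC class II gene (right) in M2 BMDMs without DA, M2 BMDMs with DA and M1 BMDMs without DA, with black bars for medians. All members lie below 0 without DA in M2 BMDMs, with medians of -0.58 and -0.44, against medians of -0.04 and 0.34 with DA and of -0.09 and 0.01 in M1 BMDMs.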

How the data were processed

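RNA was sequenced from BMDMs of WT and DRD5-/- mice on the BGISEQ-500 platform, and the authors deposited FPKM per gene, with 1 library in each file and a gene list that differed between M1 and M2 BMDMs. The methods name HISAT2 and build GRCm38.p5, and the submitters' processing notes name Bowtie2 2.2.5 and GRCm38.p6, and which of these gave the deposited values was not settled. FPKM hides the number of reads, and steps between low values did not give relative depth, so no count model was used and no interval for counting error is given.

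Libraries were grouped by labelled genotype, stimulus and treatment. Genes that reached 1 FPKM in 3 or more of the 12 libraries sharing a stimulus were fitted on log2(FPKM + 1) with limma 3.58.1 (R 4.3.3), with 4 group means, an intensity trend and Benjamini-Hochberg adjustment over all tested genes. Fold changes on this scale understate the change of genes with low levels. Genes were called at an adjusted p under 0.001 and at least 1.2-fold, the cutoffs of the study. The difference between stimuli was fitted over the 24 libraries together. The fitting code was tested on simulated data. The members and lists were chosen with earlier results of these data known. Named genes were the dopamine receptor genes, Arg1, Mrc1, Chil3, Retnla and Creb1, the 12 largest called rises and falls without overlap between groups or a predicted-gene symbol, and up to 4 members of each list with the lowest adjusted p. The endothelial, IFI200 and secreted fibroblast lists, the interferon pathway genes, the promoter windows, the test of the difference with and without DA, and Entpd4b, Gm21188 and other genes named with them were added after the data were seen. Alternatives were other scalings, filters, pseudocounts, thresholds and fits, leaving out each library, a replicate block and a correction for GC content and length. Some genes that the naming rule picked are not reported here.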

Additional observations from a re-analysis of the deposited data

Results flagged for a closer look

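The genotype change in M2 BMDMs without DA differed from that in M1 BMDMs without DA for 434 genes by the test of the difference itself (limma). Whether the M1 and M2 libraries share mice or a run is not given, so stimulus cannot be told apart from these. The values that follow are the log2 change in M2 minus the log2 change in M1, for some of the named genes past the threshold. Among interferon-induced genes the difference was -1.27 for Irf7, -0.96 for Oasl2, -1.02 for Oas3, -0.90 for Rtp4, -1.07 for Ifi44, -1.04 for Usp18, -1.15 for Ifi209 and -1.36 for Ly6e. Among MHC class II genes it was -0.61 for H2-Aa, -0.66 for H2-Ab1, -0.57 for H2-Eb1 and -0.65 for Cd74. Other genes with a lower change in M2 had differences of -0.65 for Folr2, -0.86 for Clec10a, -1.85 for Lrmda, -1.34 for Gdf3, -1.19 for L1cam, -0.94 for Tgfbi and -0.76 for Dcn. Genes with a higher change in M2 had differences of 1.97 for Dynlt1b, 1.08 for Cd59a, 1.18 for Nnt, 0.92 for Rab4a, 0.84 for Wdfy1 and 0.71 for Plau. The M1 means of Clec10a, Dcn and Rab4a were between 0.833 and 1.29 FPKM in both genotypes. At such levels the log2(FPKM + 1) scale understates changes, and the part of this in their differences was not tested.

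The genotype change also differed between M2 BMDMs with and without DA, by a test chosen after the data were seen. The log2 change with DA minus that without DA was 0.47 for Irf7, 0.57 for Oasl2, 1.11 for Ifi44, 1.26 for Ifi209, 0.82 for H2-Aa, 0.96 for Cd74, 1.15 for Mgll and 1.56 for Retnla, and it was -3.94 for Plau, -2.43 for Tgfbi and -3.82 for Arg1. The DA-treated WT libraries, which stood apart from the other M2 libraries, enter each of these values.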

How the results depend on the processing

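Without a library, the untreated M2 comparison called between 475 and 510 genes, and the test of the difference between stimuli between 350 and 457. Without a library the DA comparison called between 5042 and 5140 genes and the M1 comparison between 36 (without DRD5-/- library 2) and 71, against 94. The M1 count was 43 with no filter on low values and 36 with no intensity trend. An adjusted p under 0.05 gave 895 genes in untreated M2, 202 in M1 and 818 for the difference, and a 2-fold limit gave 36, 13, 22 and, with DA, 741. In untreated M2 BMDMs the count was 500 with no filter, 446 with the compared groups alone in the fit and 532 without the DA-treated WT libraries, an alternative chosen after seeing the data. Arg1 and Creb1, which were not called, changed sign. Median-of-ratios scaling gave 0.03 (0.0285) for Arg1 and 0.0031 for Creb1, quantile normalization 0.02 (0.0192) and 0.0049, and the GC and length correction 0.01 (0.0118) and 0.066, with or without the replicate block. The causes were not tested.

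Replicate numbers are shared between groups but did not mark shared deviations, with correlations of same-numbered untreated M2 libraries between -0.085 and -0.041. With a replicate block the counts were 534 in untreated M2, 74 in M1, 5264 with DA and 393 for the difference, and 502 in untreated M2 with the GC and length correction added. Over 85 genes and the alternatives run, 1452 of 1599 values kept their direction and side of the threshold, 136 lost the threshold, 3 passed it and 8 changed sign. Depth is unknown, so low values such as those of Plac9b and Prnd carry a counting error that could not be given.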
